A study of Saccharomyces cerevisiae with 6 samples.

Results

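The ALG genes of budding yeast encode enzymes that build the glycan of N-linked glycoproteins on the lipid dolichol. Transcripts of 10 of them, ALG1, ALG2, ALG3, ALG5, ALG6, ALG7, ALG8, ALG9, ALG12 and ALG13, were taken by gene name from tables of 6445 genes and compared between a β-carotene-producing strain and its parent. All 10 were found in each table and all 10 passed the filter on low counts, which left 6125 genes. The genes were selected on their names and roles, with no threshold on a measured value, but the set was proposed with the fold changes of the same comparison known, so the difference between the strains in these genes is given as a description, without p-values, and supports nothing further. Counts of genes past the threshold are to be read against the share of all genes past it, 1.14%.

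The study compared 3 libraries of Saccharomyces cerevisiae carrying CrtI/E/YB, genes of carotenoid synthesis, with 3 libraries of CEN.PK2-1C, a haploid laboratory strain labelled as wild type. Cultures of both strains were kept in YPD, a rich glucose medium, at 30 °C for 18 h, and RNA came from cell pellets. The labels do not say which promoters drive the introduced genes, where they were inserted, whether the producer is 1 clone or whether replicates were separate cultures, so errors measure only the spread between these libraries, which may be technical. Transcripts of other genes also differed strongly between the strains, with log2 fold changes (producer over parent) of -12.8 for GAL80 and 5.78 for GAL1. Whether that difference bears on the ALG genes was not tested. Carotenoids and dolichol are both made from prenyl diphosphates.

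N-glycosylation begins on the cytosolic face of the endoplasmic reticulum, where sugars are added singly to dolichyl phosphate from nucleotide sugars. The lipid-linked glycan is then turned to the lumenal side, extended with mannose and glucose taken from dolichol-linked donors, and moved as a block to asparagines of new proteins by oligosaccharyltransferase. In yeast the early, cytosolic steps are essential for growth, while strains lacking the lumenal steps live and transfer shorter glycans less efficiently.

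Totals of estimated counts were 56.8, 58.3 and 57.0 M (M, 1e6) for the producer replicates, with 57.5, 48.7 and 48.4 M for those of the parent. Parent replicate 1 stood nearer to the producers than the other parents did. Over 6063 genes its log2 difference from parent replicates 2 and 3 had a Spearman correlation of 0.64 with the GC content of the gene. The log2 fold change between the strains had the same value (0.64), but both draw on parent replicates 2 and 3, so their likeness is partly built in. Parent replicate 2 was the parent farthest from the others. Its chi-square per degree of freedom was 171 against parent replicate 1 and 113 against 3, beside 37.6 between parent replicates 1 and 3. Genes share their libraries, so these are descriptions. The mating type markers matched a MATa strain only in part. STE2, the receptor of a cells, lay between 281 and 337 CPM (counts per 1e6, scaled between libraries by TMM, the trimmed mean of M-values). The other a-cell markers were STE6 at 156 to 208 CPM, BAR1 at 54.9 to 77.1, MFA2 at 30.7 to 38.2 and MFA1 at 9.69 to 13.3. Of the α-cell markers, the pheromone genes MF(ALPHA)1 and MF(ALPHA)2 lay at 0.87 to 2.96 and 8.33 to 10.8 CPM. STE3, the receptor of α cells, lay between 13.8 and 19.5 CPM and SAG1, the α-agglutinin gene, between 92.2 and 119 CPM. MFA1 thus overlapped with MF(ALPHA)2 and lay below STE3. The strand setting of the counting is unknown, so reads of the opposite strand at these genes cannot be told apart from their own. No marker of the MATa list (5 genes) or the MATalpha list (4 genes) was at 0, and the summed levels were 563 to 643 CPM in the producer and 580 to 607 CPM in the parent for the first, and 142 to 148 against 119 to 132 CPM for the second.

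The ALG genes differ in base composition, and that difference matters for what follows, so a stretch of coding sequence is shown for the members with the highest and the lowest GC content. Each stretch has 150 bases and was taken where its GC content is nearest to that of its gene. The bases are those of the RefSeq reference (R64, the assembly behind sacCer3; minus strand, read 5′ to 3′), not of the strains sequenced, and G and C are in capitals. The ALG3 stretch lies at chrII:70957-71106 with 72 G or C, and the ALG2 stretch at chrVII:381050-381199 with 54.
ALG3: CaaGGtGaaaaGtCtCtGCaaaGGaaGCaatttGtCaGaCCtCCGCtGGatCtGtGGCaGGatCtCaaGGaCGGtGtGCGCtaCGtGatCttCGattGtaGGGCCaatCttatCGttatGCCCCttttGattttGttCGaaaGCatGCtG
ALG2: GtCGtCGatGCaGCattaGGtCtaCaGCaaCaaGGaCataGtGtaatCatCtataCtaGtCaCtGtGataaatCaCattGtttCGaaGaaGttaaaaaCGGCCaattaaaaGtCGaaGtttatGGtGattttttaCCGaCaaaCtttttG
Over the whole gene ALG3 has a GC content of 47.9%, which only 3.96% of the tested genes reach, and ALG2 one of 36.0%, which 89.8% reach. ALG13 has 42.5%, ALG7 40.7%, ALG12 39.1%, ALG6 39.0%, ALG9 37.1%, ALG5 36.5%, and both ALG1 and ALG8 36.3%. The median over 6063 genes was 39.7%.

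ALG3 stood out among the 10. It was 1.63-fold higher in the producer, while the other 9 members had log2 fold changes between -0.11 and 0.21. ALG3 was the single member past the threshold of the fit across all genes (edgeR's quasi-likelihood test, Benjamini-Hochberg adjusted p under 0.05), in the higher direction, where 0.800% of all tested genes passed. In either direction 1.14% passed, 70 of 6125. Nothing is read from this count, because the comparison had been seen when the genes were chosen. The members' median log2 fold change was 0.14 (0.07 without parent replicate 2 and 0.08 without producer replicate 1), beside -0.01 over all genes tested, and 7 of the 10 lay above 0, as did 48.5% of all genes. In bulk RNA a change in transcripts per cell cannot be told apart from a change in the share of cells that carry them.

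**Figure D1:**
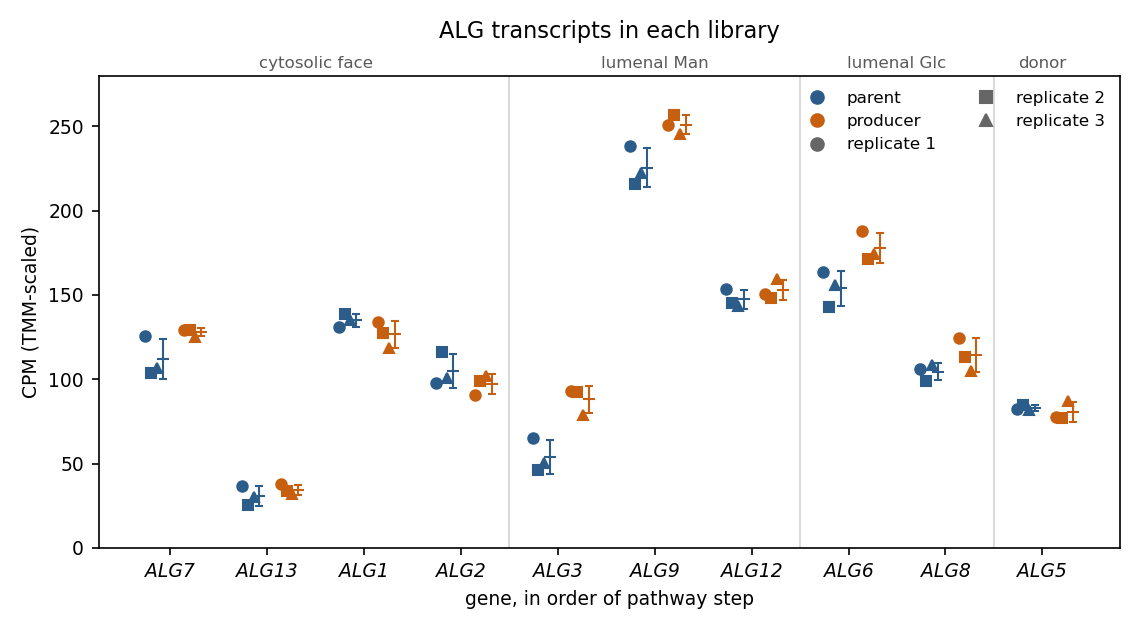
Normalised level of each ALG gene in each of the 6 libraries, in CPM scaled by TMM on a linear axis that starts at 0; marker shapes are replicate numbers, and the bars beside the points are mean ± SD of 3 libraries. Genes are ordered by pathway step (Man, mannosyltransferases; Glc, glucosyltransferases; donor, synthase of dolichyl phosphate glucose). ALG3 shows the widest gap between the strains, 79.0 to 93.1 CPM against 46.2 to 65.1 CPM.

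The cytosolic members had log2 fold changes between -0.11 and 0.19. ALG7 (YBR243C, chromosome II, 705447 to 706793, minus strand) encodes the transferase that puts the first N-acetylglucosamine on dolichyl phosphate and is the target of tunicamycin. Its level was 129, 129 and 125 CPM in producer replicates 1, 2 and 3 and 126, 104 and 106 CPM in the parent. The producers lay close together, and parent replicate 1 reached into their range while the other parents lay below it. The fitted log2 fold change was 0.19 ± 0.08 (SE, 3 libraries a strain). Without parent replicate 1 it was 0.28, and ALG7 then passed the threshold, in a fit where 17.5% of all genes did.

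ALG13 (YGL047W, chromosome VII, 411552 to 412160, plus strand), the shortest member with 202 codons, encodes the catalytic partner of Alg14 in adding the second N-acetylglucosamine. It had 37.7, 33.5 and 31.9 CPM in the producer and 36.8, 25.1 and 30.1 CPM in the parent. The strains overlapped, with replicate 1 the highest in both, and the log2 fold change was 0.16 ± 0.14 (SE), or 0.04 without parent replicate 2, 0.09 without producer replicate 1 and 0.31 without parent replicate 1.

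ALG1 and ALG2 encode the mannosyltransferases that act next. ALG1 (YBR110W, chromosome II, 458872 to 460221, plus strand), which adds the first mannose, had 134, 128 and 118 CPM in the producer against 131, 138 and 135 CPM in the parent, a log2 fold change of -0.09 ± 0.07 (SE). ALG2 (YGL065C, chromosome VII, 379760 to 381271, minus strand), which adds the mannoses of the first branch, had 90.7, 99.0 and 102 CPM in the producer against 97.5, 116 and 101 CPM in the parent, a log2 fold change of -0.11 ± 0.08 (SE). In both genes the ranges of the strains overlapped, and the producer mean was the lower one.

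On the lumenal side the mannosyltransferases ALG3, ALG9 and ALG12 act in that order, apart from a later return of Alg9, and use dolichyl phosphate mannose. ALG3 (YBL082C, chromosome II, 69751 to 71127, minus strand) adds the first lumenal mannose. Its level was 93.1, 92.2 and 79.0 CPM in producer replicates 1, 2 and 3 and 65.1, 46.2 and 50.5 CPM in the parent. All 3 producers lay above all 3 parents, and parent replicate 1 was the parent nearest to them. The means were 88.1 ± 7.91 against 53.9 ± 9.92 CPM (SD, n = 3), and the fitted log2 fold change was 0.71 ± 0.13 (SE).

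In levels not corrected for GC content, ALG3 was also higher in the producer relative to the other lumenal mannosyltransferases. The ratio of ALG3 to ALG9 CPM within a library took the values 0.371, 0.359 and 0.322 in producer libraries against 0.273, 0.214 and 0.227 in parental ones. These ratios did not overlap, as is set in part by ALG3 itself. ALG3 and ALG9 differ in GC content. With each library's trend on GC content removed, the log2 fold changes were 0.43 ± 0.08 (SE) for ALG3 and 0.28 ± 0.08 for ALG9. Ratios of levels corrected in that way were not computed. Without the correction, leaving out 1 library at a time gave ALG3 log2 fold changes between 0.61 and 0.87. It missed the threshold without producer replicate 1 (0.67), 2 (0.67) or 3 (0.78) or parent replicate 3 (0.66), fits in which 0.358%, 0.244%, 0.343% and 0.261% of all genes passed, and passed without parent replicate 1 or 2, where 17.5% and 1.42% of all genes did.

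ALG9 (YNL219C, chromosome XIV, 235996 to 237663, minus strand) adds the mannose that follows, and a further one after Alg12 has acted. It had 251, 257 and 246 CPM in the producer and 238, 216 and 222 CPM in the parent, so the strains did not overlap, with a gap of a few CPM between producer replicate 3 and parent replicate 1. The log2 fold change was 0.15 ± 0.07 (SE). ALG12 (YNR030W, chromosome XIV, 678799 to 680454, plus strand), which starts the last mannose branch, had 151, 148 and 159 CPM in the producer and 153, 145 and 143 CPM in the parent. Its ranges overlapped, and its log2 fold change was 0.05 ± 0.06 (SE).

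The glucosyltransferases ALG6 and ALG8 cap the glycan with the first glucoses, which oligosaccharyltransferase recognises once the cap is complete. ALG6 (YOR002W, chromosome XV, 329417 to 331051, plus strand) had 188, 171 and 174 CPM in the producer and 163, 143 and 156 CPM in the parent, without overlap and with a log2 fold change of 0.21 ± 0.07 (SE). ALG8 (YOR067C, chromosome XV, 451729 to 453462, minus strand) had 125, 113 and 105 CPM in the producer and 106, 98.8 and 108 CPM in the parent, with overlap and a log2 fold change of 0.13 ± 0.08 (SE). The ALG6 to ALG8 ratio of CPM averaged 1.56 ± 0.09 over producer and 1.47 ± 0.06 over parental libraries (SD, n = 3), so their balance overlapped between the strains. ALG5 (YPL227C, chromosome XVI, 120163 to 121167, minus strand) makes dolichyl phosphate glucose, the donor for these enzymes. It had 77.7, 77.0 and 87.3 CPM in the producer and 82.2, 85.0 and 81.9 CPM in the parent, with parents inside the producer range, and a log2 fold change of -0.04 ± 0.07 (SE).

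Taking all 10 together, 3 (ALG3, ALG9 and ALG6) had every producer above every parent and 0 had the reverse, where 16.6% and 17.2% of all tested genes did. The summed level of the 10 genes was 1277, 1248 and 1228 CPM in the producer and 1200, 1117 and 1134 CPM in the parent, with parent replicate 1 again the parent nearest to the producers. Counts behind single values ran from 1291 (ALG13) to 14632 (ALG9).

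**Figure D2:**
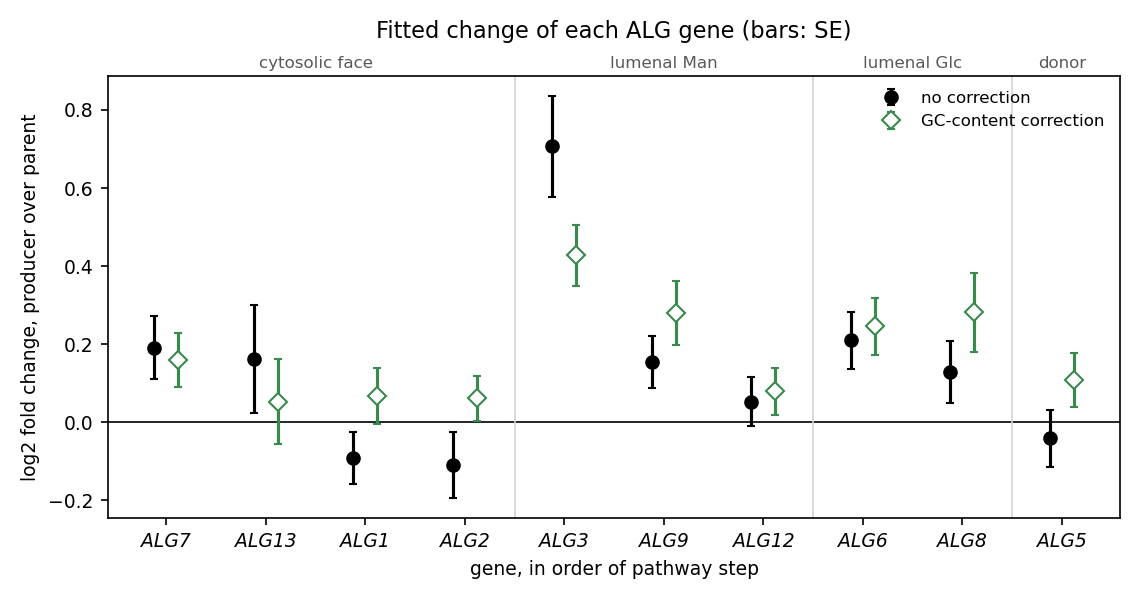
Fitted log2 fold change of each ALG gene, producer over parent, without correction (filled circles) and with each library's trend on gene GC content removed (open diamonds); bars are standard errors of fits to 3 libraries a strain. ALG3 moves from 0.71 to 0.43 with the correction, while ALG1, ALG2 and ALG5 move from just below 0 to just above it.

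The order of the members' fold changes followed their GC content. Across the 10 genes the Spearman correlation of log2 fold change with GC content was 0.83, and 0.77 over the 9 genes without ALG3. All 10 points share the same 6 libraries, and the transcriptome as a whole carried this trend. At the GC content of ALG3 the trend fitted over all genes stood 0.29 higher (log2) in the producer libraries than in the parental ones, and at that of ALG2 it stood 0.17 lower (-0.17). Removing each library's trend left ALG3 at 80.6, 84.7 and 73.4 CPM in the producer and 64.0, 56.8 and 56.6 CPM in the parent, still without overlap, with a log2 fold change of 0.43 ± 0.08 (SE). It was also past the threshold in that fit, in which 1.27% of genes passed, but not when the replicate number was added as a block, where 0.412% passed.

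The other members shifted by smaller amounts, and in both directions. With the correction ALG8 went to 0.28 ± 0.10 (SE), ALG9 to 0.28 ± 0.08 and ALG6 to 0.25 ± 0.07. ALG13 went to 0.05 ± 0.11, ALG7 to 0.16 ± 0.07 and ALG12 to 0.08 ± 0.06. ALG1 at 0.07 ± 0.07, ALG2 at 0.06 ± 0.06 and ALG5 at 0.11 ± 0.07 changed sign. All 10 corrected values were then above 0, as were 50.0% of all genes, with a median of 0.13. In corrected CPM the producers lay above the parents without overlap in ALG3, ALG6, ALG8 and ALG9, 4 of 10, where 13.0% of all genes did. The correlation with GC content over the 10 corrected values was 0.24. The part of the GC trend in these differences beyond this correction was not tested.

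**Figure D3:**
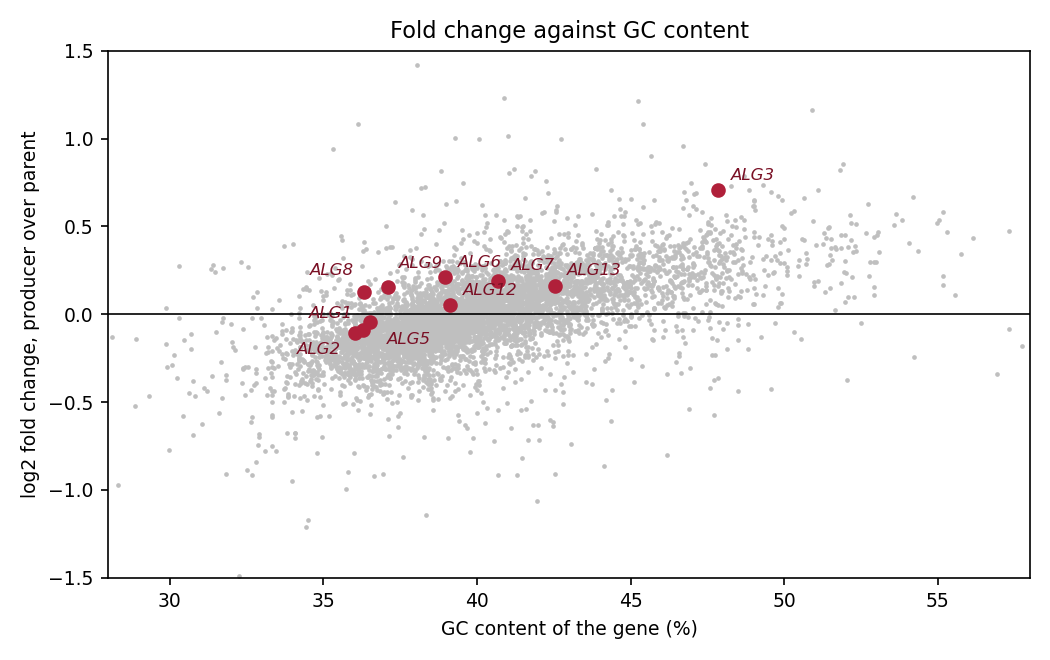
Log2 fold change (producer over parent, uncorrected) against GC content of the gene for 6029 tested genes (grey; 34 lie outside the axes), with the 10 ALG genes in red. The cloud slopes upward, and ALG3, at 47.9% GC, lies at its right and toward its upper edge.

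Levels between genes were compared per kilobase of coding length (CPM per kb), without correction for GC content. ALG9 was the most abundant member, with 150 ± 3.34 CPM per kb in the producer and 135 ± 6.96 in the parent (SD, n = 3), and its 6 libraries did not overlap with those of ALG6, the next in the mean over all libraries at 109 ± 5.43 and 94.1 ± 6.41. From ALG6 downward the order of that mean was ALG1, ALG12, ALG7, ALG5, ALG2, ALG8, ALG13 and ALG3, and each of these overlapped with its neighbour in the order. The strains ordered some neighbours differently, with ALG1 above ALG6 in the parent and below both ALG6 and ALG7 in the producer. ALG3 had 64.0 ± 5.75 CPM per kb in the producer and 39.2 ± 7.20 in the parent, the lowest of the 10 in the parent, whereas in the producer ALG13 was lowest at 56.4 ± 4.90. In these uncorrected levels the most abundant member stood 3.45-fold above the least abundant in the parent and 2.67-fold in the producer. Genes of the cytosolic and the lumenal steps were interleaved in this order. The order and the span were not computed from corrected levels. Corrected means, in CPM and not per kb, were 79.6 in the producer and 59.1 in the parent for ALG3, and 263 and 216 for ALG9. In the producer the corrected mean of ALG1 was 134 CPM and that of ALG7 126 CPM.

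In levels not corrected for GC content, the members did not vary as a block across the libraries. Over the 6 libraries the log2 level of ALG9 had a Pearson correlation of 0.96 with the mean of the other 9 members. ALG7 also had 0.96, ALG6 0.95, ALG3 0.93 and ALG8 0.72, whereas ALG2 had -0.86 and ALG1 and ALG5 both -0.58. The fitted GC trend (log2) in parent replicate 2 stood at 0.22 for ALG2, 0.20 for ALG1 and 0.19 for ALG5, against -0.30 for ALG3. It also stood at 0.20 for ALG8 and 0.16 for ALG9, whose correlations were positive. Correlations of corrected levels were not computed. Outside the set, the genes most like the mean profile of the 10 were RRN5, of an RNA polymerase I initiation factor (0.999), RBD2, of the rhomboid family (0.999), and YPR170W-B (0.997). Such values were common, since 660 of 5530 genes of at least 10 CPM had a correlation over 0.9 with that profile.

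The surroundings of the members were examined because the sources do not say whether counting was by strand. In the RefSeq R64 annotation no member overlaps another gene, and reading frames left out of that annotation were not examined. In it 8 members face a convergent neighbour. The nearest is YBR242W, which ends 60 bp from ALG7 and was at -0.12 ± 0.08 (SE, log2). Of 19 flanking genes tested, 0 passed in edgeR (1.14% of all genes), 2 had an unadjusted p under 0.05 (27.3%), and DESeq2 called 1 (14.6%) and limma-voom 0 (1.04%). YBL081W, an unnamed reading frame that diverges from ALG3 with 738 bp between them and has a GC content of 44.8%, went from 67.5 ± 14.6 to 101 ± 15.9 CPM (SD, n = 3), which is 0.58 ± 0.16 (SE) on the log2 scale and missed the threshold (edgeR adjusted p 0.0850). CDC27, an anaphase-promoting complex gene 305 bp past the end of ALG3, was at 0.03 ± 0.07. With the GC-content correction YBL081W was at 0.39 ± 0.16 (edgeR adjusted p 0.243) and CDC27 at 0.16 ± 0.06.

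Upstream sequence was searched on both strands in the 300 bases before each start codon, in the RefSeq R64 reference, for 3 motifs that do not overlap in the windows shown. The core of the unfolded protein response element bound by Hac1, CAGCGTG, was in 0 of the 10 windows and in 1.23% of 6026 genes. The Gal4 consensus, CGG and CCG with 11 bases of any kind between them, was in 0 of 10 and in 1.44%. The core of the Gcn4 site, TGACTC, was in 2 of 10, ALG3 and ALG13, and in 7.73% of all genes. Both matches are printed on the coding strand of their gene with the motif in capitals, ALG3 at chrII:71313-71338 (minus strand) and ALG13 at chrVII:411516-411541 (plus strand), where the motif reads on the other strand.
ALG3: caatcttacaTGACTCtttattgctg
ALG13: ttaaacaaacGAGTCAgaagccagct
A match describes letters only, and binding was not measured.

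Genes of the rest of the glycoprotein pathway had log2 fold changes of at most 0.46 in size. At the share of all genes that passed, lists this short would hold few calls or none, so the zero counts below say little about the steps. Of 68 genes in 8 further lists, 0 passed in edgeR (1.14% of all genes), 26 had an unadjusted p under 0.05 (27.3% of all genes), DESeq2 called 10 (14.6% of all genes) and limma-voom 0 (1.04% of all genes). Their median log2 fold change was 0.06, and 19 had every producer above every parent (16.6% of all genes) and 9 the reverse (17.2% of all genes). Without parent replicate 1, 15 of the 68 passed, in a fit where 17.5% of all genes did.

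The other genes of glycan assembly examined were ALG14, ALG11 and DIE2, with 0 of 3 past the threshold. ALG14, the membrane anchor of Alg13, had 68.0, 67.6 and 67.5 CPM in the producer and 66.8, 53.9 and 59.2 CPM in the parent. Its log2 fold change was 0.17 ± 0.09 (SE), close to the 0.16 of ALG13 only before the GC-content correction. After the correction ALG14 was at 0.19 ± 0.08 and ALG13 at 0.05 ± 0.11. ALG11, which adds the last cytosolic mannoses, was at -0.04 ± 0.06 and DIE2, which adds the terminal glucose, at 0.06 ± 0.07. After the correction ALG11 was at 0.11 ± 0.07 and DIE2 at 0.22 ± 0.08. In corrected CPM every producer lay above every parent in DIE2, where 13.0% of all genes did so. In uncorrected CPM ALG14 did not overlap between the strains, with parent replicate 1 just below the producers.

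Genes that supply the lipid and the sugars gave a mixed picture. In the dolichol list 0 of 7 passed and the median was -0.06. NUS1, a subunit of the cis-prenyltransferase that makes dolichol, was at -0.24 ± 0.08 (SE; edgeR adjusted p 0.114), or -0.19 ± 0.07 after the GC-content correction. RER2, the catalytic partner of Nus1, was at 0.17 ± 0.06 (0.124), or 0.07 ± 0.07 after the correction. DPM1, which makes the mannose donor used by Alg3, Alg9 and Alg12, was at 0.35 ± 0.15 before and 0.03 ± 0.09 after it. In the sugar nucleotide list 0 of 9 passed and the median was 0.11. VRG4, the Golgi GDP-mannose transporter, was at 0.28 ± 0.07 (edgeR adjusted p 0.0735) and PMI40, mannose-6-phosphate isomerase, at 0.25 ± 0.07 (0.0901). The abundant UGP1, which makes UDP-glucose, was at 0.11 ± 0.10. After the correction VRG4 was at 0.27 ± 0.06, PMI40 at 0.24 ± 0.06 and UGP1 at 0.04 ± 0.08.

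Among the steps after assembly, in oligosaccharyltransferase 0 of 9 subunits passed, 8 of 9 lay above 0 and the median was 0.14. OST4, a small subunit, was at 0.38 ± 0.10 (SE; edgeR adjusted p 0.0789), and STT3, the catalytic subunit, at 0.34 ± 0.12 (0.119). After the GC-content correction OST4 was at 0.31 ± 0.09 and STT3 at 0.14 ± 0.08. In trimming and quality control 0 of 11 passed, with a median of 0.03. CNE1, the yeast calnexin, was at 0.24 ± 0.09, YOS9, a lectin of glycoprotein degradation, at -0.16 ± 0.06 and HRD1, a ubiquitin ligase, at 0.16 ± 0.07. After the correction CNE1 was at 0.10 ± 0.07, YOS9 at -0.03 ± 0.06 and HRD1 at 0.25 ± 0.08.

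**Figure D4:**
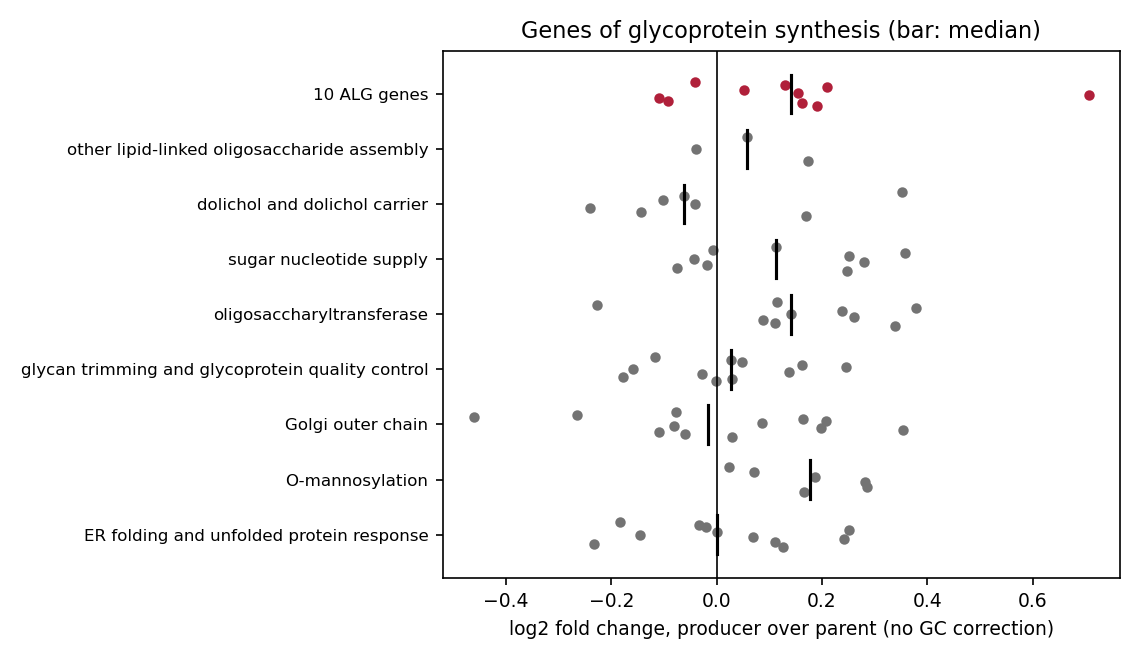
Log2 fold change, producer over parent and uncorrected for GC content, of each gene in the 10 ALG genes (red) and in 8 further lists of glycoprotein synthesis (grey); black bars are list medians and rows of points are spread vertically only for legibility. ALG3 lies farthest from 0 at 0.71, beyond all 68 genes of the other lists, whose largest size is 0.46 (MNN1, at -0.46). With the GC-content correction, not drawn here, ALG3 was at 0.43 ± 0.08 (SE) and MNN1 at -0.37 ± 0.09.

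In the Golgi outer chain list 0 of 12 passed, with a median of -0.02. MNN1, which adds terminal mannoses, had 140, 137 and 113 CPM in the producer and 165, 179 and 192 CPM in the parent, a log2 fold change of -0.46 ± 0.10 (SE) and an edgeR adjusted p of 0.0609. It had the smallest adjusted p of the 68 genes, and all producers lay below all parents. After the GC-content correction MNN1 was at -0.37 ± 0.09. ANP1, of a mannan polymerase complex, was at 0.35 ± 0.10, or 0.11 ± 0.07 after the GC-content correction. In O-mannosylation, a separate route that also takes mannose from dolichyl phosphate mannose, 0 of 6 passed, 6 of 6 lay above 0 and the median was 0.18, with PMT2 at 0.29 ± 0.10 (0.10 ± 0.06 after the correction) and PMT3 at 0.28 ± 0.09 (0.22 ± 0.07). In the list of endoplasmic reticulum folding genes 0 of 11 passed and the median was 0.00. IRE1, the sensor of unfolded proteins, was at -0.23 ± 0.06 (SE; edgeR adjusted p 0.0755), SCJ1, a chaperone, at 0.25 ± 0.07, and PDI1, the abundant disulfide isomerase, at 0.24 ± 0.12. After the GC-content correction IRE1 was at -0.11 ± 0.05, SCJ1 at 0.04 ± 0.05 and PDI1 at -0.02 ± 0.08.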

How the data were processed

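RNA-seq libraries of 3 producer and 3 parental cell pellets were analysed from 6 deposited tables of estimated counts, 1 whole number for each gene. Per the file headers, the authors made them from StringTie transcript files after duplicate reads were removed, which may lower abundant transcripts. The submitters' processing notes name the build sacCer3 and the tools HISAT2, SAMtools, Picard, FastQC and DESeq2, without versions; the strand setting is unknown here.

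Tables were joined by gene name, and 6210 of 6445 names matched RefSeq R64, from which coordinates, GC content and sequences were read (Python 3.11.15, Biopython 1.88). Rounding changed no value. The main test was edgeR 4.0.16 in R 4.3.3 (filterByExpr, TMM, robust quasi-likelihood F test, two-sided, Benjamini-Hochberg over 6125 genes, threshold 0.05), tested on simulated counts. Standard errors were taken as log2 fold change over the root of F, and CPM was TMM-scaled. Alternatives were other scalings and filters, DESeq2 1.42.0, limma-voom (limma 3.58.1), a replicate block, each library left out, and a GC-content correction (loess per library, span 0.5, genes of at least 5 CPM, as an offset; 6063 genes).

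The members, lists, motifs and alternatives were chosen with earlier results of these data known. Every member was named, and every gene of the assembly list but 1, which is not reported here; of each other list, genes past the threshold, otherwise the 2 with the smallest adjusted p and the most abundant one. The 3 genes most like the members' mean profile were named by Pearson correlation. ALG flanking genes and mating type markers were named outside that rule. The list name MNN6 was matched to KTR6 by synonym.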

Additional observations from a re-analysis of the deposited data

How the results depend on the processing

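ALG3 kept its direction under all 16 alternatives (log2 fold change 0.43 to 0.87) and passed in 11. The alternatives reuse the same libraries and a comparison known when the genes were chosen, so this tally gives no independent support. It missed the threshold without any 1 producer replicate, without parent replicate 3, and with the replicate block and GC-content correction together, where 0 ALG genes and 25 genes in all passed. ALG1, ALG2 and ALG5, at -0.09, -0.11 and -0.04, went to 0.067, 0.061 and 0.107 with the GC-content correction and to 0.065, 0.061 and 0.107 with the block added. Leaving out 1 library gave between 15 and 1077 genes, 0 to 2 ALG genes and 0 to 15 of the 68 pathway genes past the threshold. The count of all genes was 22, 15 and 21 without producer replicate 1, 2 and 3, and 1077, 87 and 16 without parent replicate 1, 2 and 3. DESeq2 called 842 genes and 10 pathway genes, and upper-quartile factors 1 pathway gene, MNN1. The members' median ran from 0.066 (without parent replicate 2) to 0.179 when 1 library was left out. The replicate numbers did not pair the libraries: deviations of same-numbered libraries correlated at 0.23, -0.17 and -0.39. Those of differently numbered libraries ran from -0.30 to 0.39, with producer 3 and parent 2 at 0.39 and producer 2 and parent 3 at 0.33. A pairing under other numbers was not tested. In the fit with the replicate block 104 genes and 1 ALG gene passed. The cause of these shifts was not tested. With 3 libraries a strain, small differences rest on few libraries.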
